A study of Mus musculus with 14 samples.

Results

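Erythroid genes were followed in lymphoid nodules: the transcription factor genes Klf1 and Gata1, the erythropoietin receptor gene Epor, the carbonic anhydrase genes Car1 and Car2, the erythroid heme synthesis gene Alas2, and the adult globin genes Hba-a1, Hbb-bs and Hbb-bt. These 9 genes were chosen by symbol, and all 9 were found among the 32285 genes of the 7 single-cell RNA libraries. Apart from mice 27 and 34, described below, each library came from white nodules of 1 cKO mouse. These mice had floxed Eif3e alleles and Cre expressed from the Ighg1 locus (Eif3e fl/fl Cγ1Cre, cKO, on a C57BL/6J background). Cre was thus driven in activated B cells, and the erythroid lineage was not its target. The mice with a B cell receptor V(D)J library (BCR nodules) were mouse 27 (liver, 12 months), 29 (lung, 12 months), 31 (spleen, 13 months), 33 (thymus, 16 months) and 34 (lung and thymus, 9 months). The mice with a T cell receptor V(D)J library (TCR nodules) were mouse 30 (liver, 14 months) and 32 (spleen, 12 months). The sample from mouse 27 was a secondary tumor, grown after transplantation of its nodule, for which the study used Rag2-/- recipients. The study's list of animals gives mouse 34 as reconstituted with a mix of JHT and cKO bone marrow. Per the methods such mixes, mostly JHT marrow, were given to irradiated Rag2-/- mice. The genotype of the erythroid cells in these samples is therefore not known. A Rosa26-YFP reporter was listed for mice 29, 31, 32 and 34 and not for 30 and 33. There was no control nodule, and per the labels erythrocytes were lysed and dead cells removed before the libraries were made.

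Red cells arise from progenitors in which Gata1 switches on the lineage and erythropoietin, acting through Epor, keeps the cells alive. Klf1 then activates the adult beta globin genes and much of the red cell program, Car1 marks the progenitor stage, and Alas2 and the globins rise late, after which the nucleus is lost and a reticulocyte full of globin mRNA remains. The mouse spleen is a site of such erythropoiesis, above all under stress. In droplet libraries globin mRNA from burst red cells also floats freely and is captured beside the RNA of other cells, so that globin UMIs alone do not mark an erythroid cell. A UMI (unique molecular identifier) stands for 1 captured molecule, and CPM below is the UMIs of a gene scaled to the total UMIs of the same cells. CPM is not divided by transcript length, so it was compared between cells and mice and not between genes.

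The 250 bases before the annotated start are shown for 5 members, since the globin genes differed from each other in the results below and Klf1 and Gata1 act through short words in such windows. Capitals mark the words searched on both strands: GATA words (GATA after an A or a T and before an A or a G, read by GATA factors), CCNCNCCCN (KLF words, of the kind read by KLF factors) and CCAAT. All were taken from RefSeq on GRCm38.p6, on the coding strand of each gene, and entries were at hand for 7 of the 9 members, Car1 and Car2 being the other two.
Hbb-bs, chr7:103827929-103828178, minus strand: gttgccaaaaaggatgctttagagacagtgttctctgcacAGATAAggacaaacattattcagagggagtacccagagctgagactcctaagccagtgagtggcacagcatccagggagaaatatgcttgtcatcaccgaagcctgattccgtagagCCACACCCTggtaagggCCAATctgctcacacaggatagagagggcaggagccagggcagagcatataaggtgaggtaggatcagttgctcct
Hbb-bt, chr7:103813924-103814173, minus strand: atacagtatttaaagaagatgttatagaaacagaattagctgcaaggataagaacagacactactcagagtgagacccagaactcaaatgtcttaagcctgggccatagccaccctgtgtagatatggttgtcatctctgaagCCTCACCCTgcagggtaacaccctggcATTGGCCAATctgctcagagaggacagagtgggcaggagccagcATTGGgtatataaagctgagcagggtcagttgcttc
Hba-a1, chr11:32283422-32283671, plus strand: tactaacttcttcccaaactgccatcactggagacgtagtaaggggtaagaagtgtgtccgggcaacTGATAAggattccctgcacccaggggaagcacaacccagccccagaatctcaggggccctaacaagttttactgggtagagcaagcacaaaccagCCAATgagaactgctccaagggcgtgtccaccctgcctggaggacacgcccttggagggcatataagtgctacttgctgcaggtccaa
Alas2, chrX:150547167-150547416, plus strand: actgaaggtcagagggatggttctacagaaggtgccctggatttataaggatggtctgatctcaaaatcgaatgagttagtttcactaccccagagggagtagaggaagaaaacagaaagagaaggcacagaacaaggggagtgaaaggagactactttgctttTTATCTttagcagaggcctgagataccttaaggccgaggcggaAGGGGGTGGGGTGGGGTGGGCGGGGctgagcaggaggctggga
Klf1, chr8:84901732-84901981, plus strand: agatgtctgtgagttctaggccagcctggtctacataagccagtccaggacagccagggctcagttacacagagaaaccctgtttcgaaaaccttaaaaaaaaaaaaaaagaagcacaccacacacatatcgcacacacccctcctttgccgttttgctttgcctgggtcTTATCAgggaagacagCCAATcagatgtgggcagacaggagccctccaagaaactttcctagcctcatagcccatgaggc

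Hbb-bs, which spans chr7:103826523-103827928, had 1 GATA word, 1 KLF word (CCACACCCT, 93 bases before the start) and 1 CCAAT. Its neighbor Hbb-bt, at chr7:103812524-103813923, had no GATA word, 1 KLF word (CCTCACCCT, 107 bases before the start) and 3 matches to CCAAT. Hba-a1, at chr11:32283672-32284486, had 1 GATA word and 1 CCAAT. Alas2, at chrX:150547417-150570622, had 1 GATA word and 4 KLF words, 3 of them overlapping. Klf1, at chr8:84901982-84905291, had 1 GATA word and 1 CCAAT, Gata1 (chrX:7959260-7976663) had 3 KLF words only in a window (chrX:7967911-7968160) that lies inside its span, the window and the span being counted from different starts, and Epor (chr9:21958897-21963576) had 1 GATA word and 4 KLF words. Car1 and Car2 lie side by side at chr3:14766214-14808365 and chr3:14886269-14900770. The same windows of all 32851 promoters held a GATA word in 26.5%, a KLF word in 45.8% and CCAAT in 33.8%, so a match is common and is given as a description only. The windows of Hba-a1 and Hba-a2, extended to 300 bases, shared an unbroken run of 297 bases, against 14 bases for Hbb-bs and Hbb-bt. These windows lie before the start and do not show how alike the transcripts are. Whether reads of Hba-a1 and its copy Hba-a2 were split or dropped by the counting was not tested, and Hba-a1 values are uncertain to that extent.

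The files held 77442 barcodes, of which 75503 had more than 200 UMIs, more than 100 genes and at most 10% mitochondrial UMIs and were kept. Libraries held between 19264039 UMIs (mouse 30) and 123456962 UMIs (mouse 32), with medians of 1364 to 5319 UMIs per kept cell, and pairs of libraries shared between 78 and 278 barcodes. The nodule of mouse 32 stood apart from the other 6 for most members, and results that rest on it are given with and without it. Clusters rich in T cell markers made up 59.1% of its cells and those rich in B cell markers 0.0823%, although it was taken from the spleen. No cluster met the rule for hepatocytes in the 2 liver nodules, where B cells (89.2%, mouse 27) and T cells (88.8%, mouse 30) prevailed.

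Summed over all kept cells, the early erythroid genes were high in mouse 32 and near the limit of detection elsewhere. Klf1 reached 36.5 CPM (mouse 32), against 0.601 (mouse 31), 0.388 (mouse 34), 0.364 (mouse 30), 0.195 (mouse 33), 0.137 (mouse 29) and 0.117 (mouse 27). Gata1 reached 49.4 CPM (mouse 32), 0.828 (mouse 31), 0.446 (mouse 27), 0.312 (mouse 30), 0.111 (mouse 33), 0.0914 (mouse 34) and 0.0589 (mouse 29). For both genes mouse 31, the other spleen nodule, came next after mouse 32, and the 95% Poisson interval of its Klf1 value overlapped those of mice 30 and 34, as that of its Gata1 value did those of mice 27 and 30. Epor, the receptor through which erythropoietin acts, stood at 21.8 CPM in mouse 32 and at 0.0589 to 0.188 CPM in the other 6, where 2 to 8 UMIs were counted per library.

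The carbonic anhydrases, which interconvert carbon dioxide and bicarbonate, differed from each other. Car1 was at 2532 CPM (mouse 32), 4.38 (mouse 31), 0.675 (mouse 30), 0.569 (mouse 29), 0.564 (mouse 27), 0.480 (mouse 34) and 0.264 (mouse 33), so that only the 2 spleen nodules were above 1 CPM. Car2 was at 1763 CPM (mouse 32), but also at 64.9 (mouse 34), 40.4 (mouse 33), 36.7 (mouse 29), 22.1 (mouse 31), 14.9 (mouse 30) and 7.92 (mouse 27). Cells other than erythroid ones carried Car2: B cells in mouse 34 (70.1 CPM) and mouse 33 (57.2 CPM) and epithelial cells in mouse 30 (337 CPM) and mouse 29 (155 CPM). A Car2 UMI by itself was therefore not a sign of an erythroid cell in these nodules.

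Alas2 and the globins did not set mouse 32 apart in the same way. Alas2, the rate-limiting enzyme of heme synthesis in red cell precursors, was at 36.3 CPM (mouse 32), 15.5 (mouse 34), 3.81 (mouse 33), 3.49 (mouse 29), 2.49 (mouse 31), 0.312 (mouse 30) and 0.211 (mouse 27). Hbb-bs was at 1689 CPM (mouse 32), 1636 (mouse 34), 1004 (mouse 29), 265 (mouse 33), 198 (mouse 31), 16.9 (mouse 27) and 1.71 (mouse 30). Mouse 34 thus came within a few percent of mouse 32 for Hbb-bs, while its Klf1 and Gata1 UMIs numbered 17 and 4. The order was the same at both ends for Hbb-bt, with 680, 286 and 0.208 CPM in mice 32, 34 and 30, and for Hba-a1, with 369, 263 and 0.675 CPM. In sums over a nodule, fewer cells of a type and less RNA per cell cannot be told apart.

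**Figure D1:**
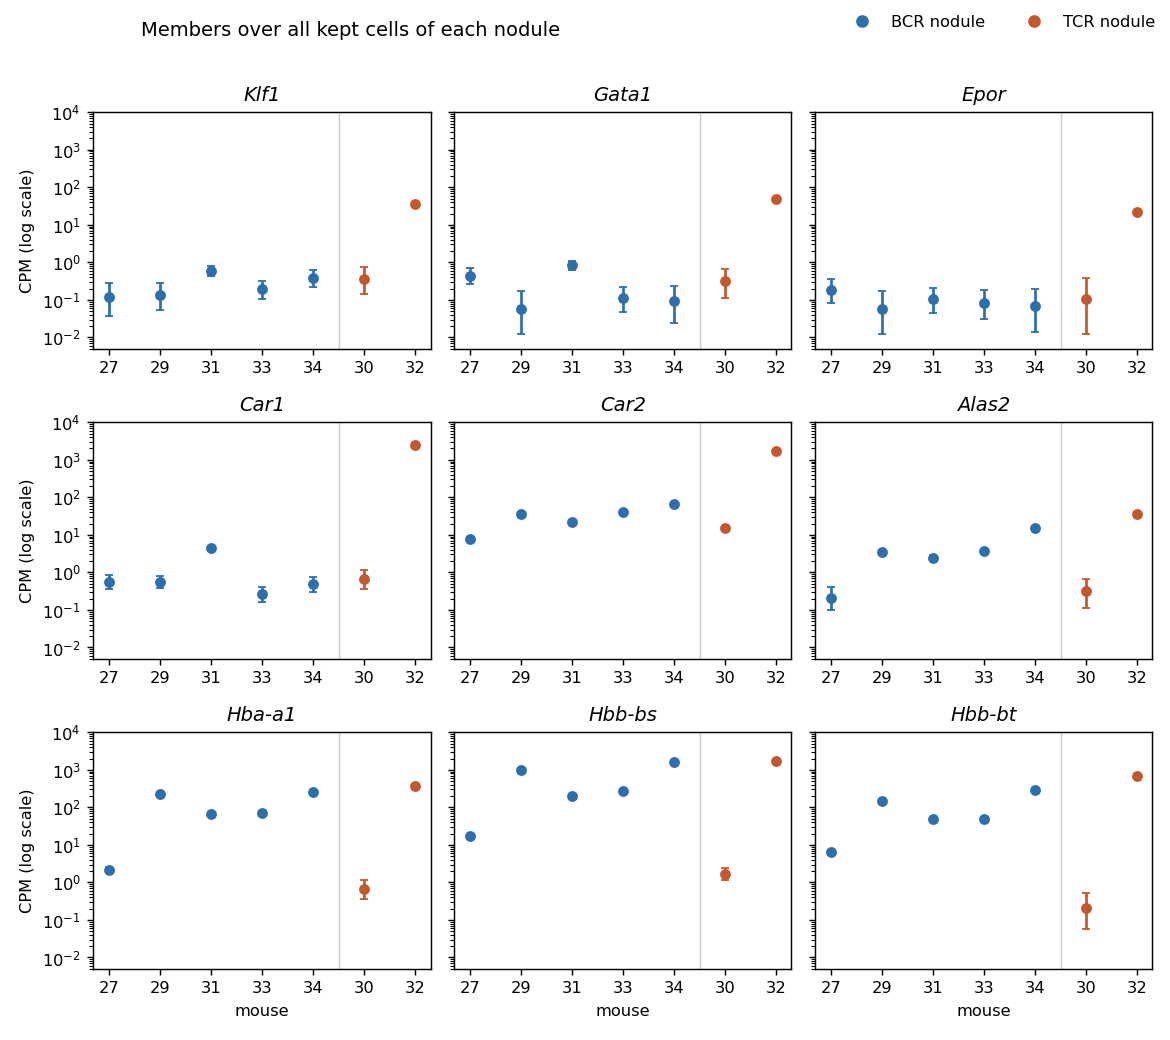
Level of each of the 9 members over all kept cells of each nodule, in CPM on a log axis, by mouse, with blue points for BCR and orange points for TCR nodules; bars are 95% Poisson intervals and cover counting error only. Klf1, Gata1, Epor and Car1 are far above the rest in mouse 32 alone, whereas Hbb-bs is nearly as high in mouse 34 (1636 CPM) as in mouse 32 (1689 CPM).

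Between groups of nodules edgeR gave no call, whereas DESeq2 called genes in both comparisons. Between TCR and BCR nodules, Klf1 averaged 18.4 ± 25.6 CPM (SD, n = 2) against 0.288 ± 0.205 CPM (n = 5), and Hbb-bs 845 ± 1193 against 624 ± 679 CPM, so the spread between the 2 TCR mice was as large as their mean. In edgeR's quasi-likelihood test 0 of 19159 genes (0%) passed an adjusted p of 0.05, although 2118 had an unadjusted p under 0.05, and DESeq2 called 1060. The log2 fold changes were 5.77 ± 1.34 (SE) for Klf1, 6.09 for Gata1, 9.71 for Car1 and 4.54 for Car2, with edgeR adjusted p between 0.273 and 0.307. Those of Alas2 (1.72), Hbb-bt (1.56), Hba-a1 (0.45) and Hbb-bs (0.35) were smaller, with edgeR adjusted p of 0.702 to 0.962, and Epor did not pass the filter on low counts. None of the 8 members tested was higher in both TCR nodules than in every BCR nodule, which 11.6% of all genes tested were. Without mouse 32 the log2 fold changes of all 8 were below 0. DESeq2 gave adjusted p of 0.000944 for Klf1, 0.00316 for Gata1 and 0.0151 for Car2 and none for Car1.

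By site, Klf1, Gata1 and Car1 were higher in both spleen nodules than in each of the 5 others. Klf1 averaged 18.6 ± 25.4 CPM in the spleen against 0.240 ± 0.127 CPM elsewhere, Gata1 25.1 ± 34.4 against 0.204 ± 0.168 CPM, and Car1 1268 ± 1787 against 0.510 ± 0.154 CPM (SD, n = 2 and 5). Such a gap was seen in 3 of the 8 members tested and in 3.27% of all genes tested. Of the 62 Gata1 UMIs of mouse 31, 58.1% lay in cells with a V(D)J call, 21 UMIs of them in a single cell. The gap in Gata1 was thus not a matter of erythroid cells alone. With edgeR again 0 of 19159 genes (0%) were called, 1191 had an unadjusted p under 0.05, and DESeq2 called 370, among them Klf1 (adjusted p 9.98e-05), Gata1 (6.57e-05), Car1 (6.80e-12) and Car2 (0.0241). The log2 fold changes were 6.23 for Klf1, 6.92 for Gata1, 11.25 for Car1 and 4.66 for Car2, each with an edgeR adjusted p of 0.756, and 0.66 for Hbb-bs with 0.961. Without mouse 31, edgeR called 17 genes, among them Klf1 (adjusted p 0.0412) and Car1 (adjusted p 0.000887), with mouse 32 as the lone spleen sample. Without mouse 32, Klf1 (1.61), Gata1 (2.32) and Car1 (3.40) remained above 0 and Car2, Alas2 and the 3 globins fell below it. Outside spleen and liver, site and mouse cannot be told apart.

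To find erythroid cells without using any member, cells were scored by 12 other red cell genes (among them Slc4a1, Ermap, Rhag, Rhd, Kel, Cldn13, Epb42, Trim10, Hemgn and Icam4). A cell with at least 3 UMIs over at least 2 of them and without a V(D)J call is called an erythroid marker cell. Mouse 32 had 3023 of them, 22.6% of its cells, against 0.238% or 27 cells (mouse 31), 0.175% or 12 cells (mouse 34), 0.121% or 17 cells (mouse 29), 0.0701% or 7 cells (mouse 33) and 1 cell each in mice 27 and 30. With every cell thinned to 1000 UMIs the share in mouse 32 was 7.46%, still above the highest of the other 6, 0.131% in mouse 31. The share averaged 11.3 ± 16.0% in TCR and 0.123 ± 0.0884% in BCR nodules (SD), and the groups overlapped (two-sided exact permutation test, p = 0.571, n = 2 and 5). Spleen nodules (11.4 ± 15.8%) and the others (0.0772 ± 0.0716%) did not overlap, at p = 0.0952 in the same exact test, the smallest value this design can give, or 0.25 after adjustment over the 6 permutation tests made. By membership of erythroid-like clusters instead, the spleen groups overlapped, with exact p = 0.381.

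The erythroid marker cells of mouse 32 were rich in RNA and mostly poor in globin. They had a median of 19552 UMIs and 4513 genes, against 4245 UMIs per cell in the whole library, and 2992 of the 3023 had a UMI of Klf1, Gata1 or Car1. Their median globin share (Hba-a1, Hbb-bs and Hbb-bt together) was 0.00743% of a cell's UMIs and the highest 52.1%. Car1 was detected in 97.8%, Car2 in 99.1%, Gata1 in 65.4%, Klf1 in 59.8% and Epor in 48.5% of them, but Hbb-bt in 52.2%, Hbb-bs in 49.95%, Hba-a1 in 34.01% and Alas2 in 22.6%. The same cells held 88.0% to 91.5% of the UMIs of each of the 9 members in that library. A T cell marker UMI was seen in 675 of them and a B cell marker UMI in 72. Doublets were not called, and their part in these values was not tested. The marker rule is met more easily by deep cells, so part of the high UMI median came from the choice of cells. The erythroid-like clusters, made up mostly of cells of mouse 32 and found without that rule, had medians of 14442 and 15428 UMIs.

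Within those 3023 cells the members changed stepwise with the globin share. In 5 bins of rising globin share (1655 cells under 0.01%, 592 at 0.01 to 0.1%, 396 at 0.1 to 1%, 335 at 1 to 10% and 45 at 10% or more) the globins were used to make the bins and are not read. Klf1 was at 44.5, 55.3, 87.7, 131 and 141 CPM from the lowest bin to the highest. Gata1 followed it with 61.2, 79.6, 109, 164 and 156 CPM. Both transcription factor genes were thus at their lowest in the cells with least globin, and the counting intervals of the 2 highest bins overlapped.

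Car1 and Car2 ran in opposite directions. Car1 stood at 4688, 4505, 3710, 2171 and 355 CPM over the 5 bins, whereas Car2 stood at 2254, 2744, 3862, 6024 and 7077 CPM. Alas2 was nearly absent from the lowest bin and rose most, with 1.30, 4.55, 73.6, 413 and 1614 CPM. Epor was highest in the middle, at 33.3, 40.3, 44.4, 36.1 and 21.04 CPM, the last value resting on 45 cells. The early genes Kit, Gata2, Cd34, Myb and Myc summed to 649 CPM in the lowest and 69.1 CPM in the highest bin, and 10 proliferation genes to 1423 CPM in the lowest, 4532 CPM in the bin at 1 to 10% and 3045 CPM in the highest. Cells of the highest bin had a median of 5189 UMIs and 1467 genes, against 22010 UMIs and 4860 genes in the lowest.

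**Figure D2:**
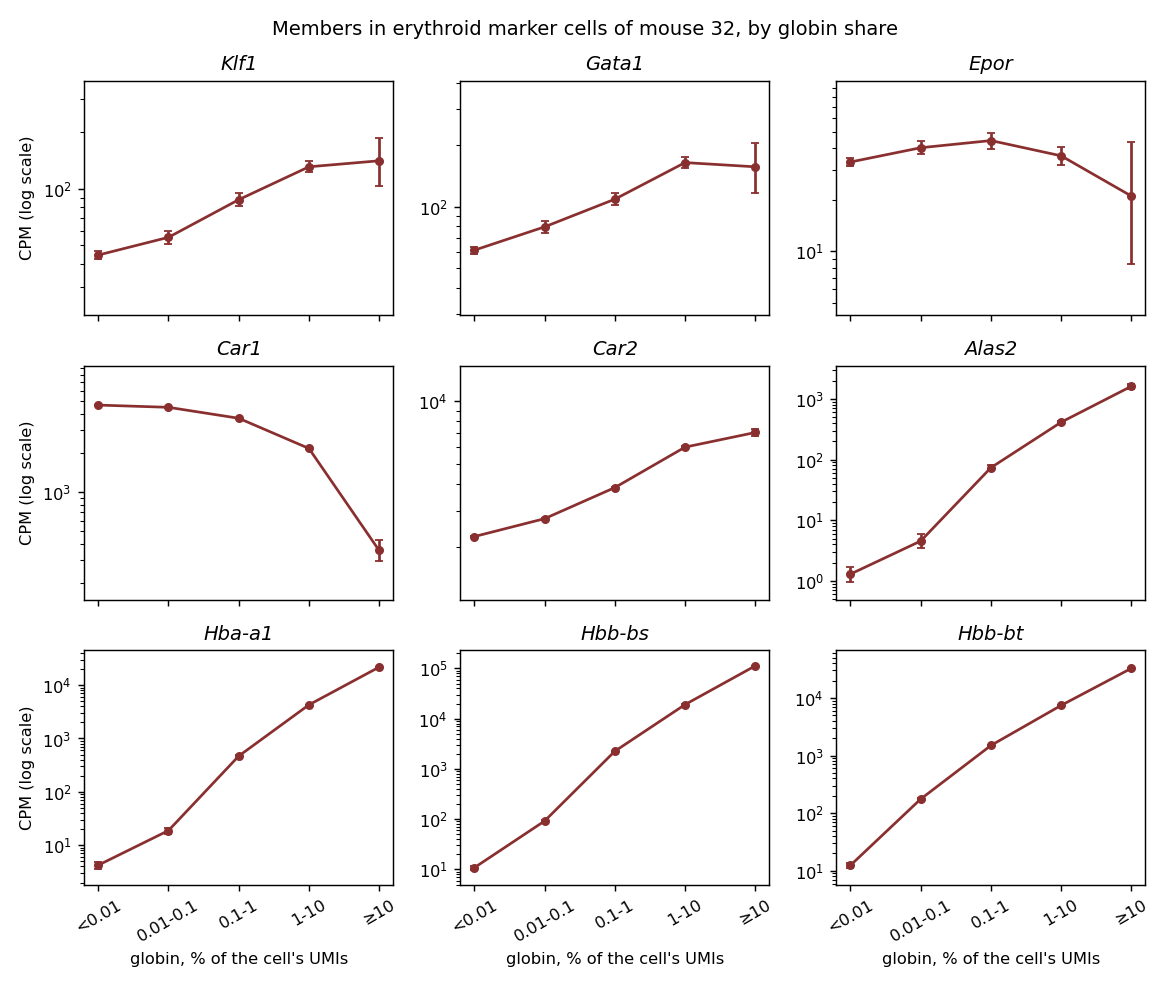
Level of each member in CPM (log axes, each panel with its own range) in the 3023 erythroid marker cells of mouse 32, in 5 bins of the globin share of a cell's UMIs; bars are 95% Poisson intervals. Car1 falls from 4688 to 355 CPM and Alas2 rises from 1.30 to 1614 CPM, while Klf1 rises from 44.5 to 141 CPM; the 3 globins were used to form the bins.

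A split that used no member gave the same order. Cells were divided by the share of late genes (among them Slc4a1, Trim10, Epb42, Rhd and Kel) among their early and late gene UMIs, with limits at 33.3% and 66.7%, which left 1702 early, 427 middle and 701 late cells. From early to late, Hbb-bs was at 42.9, 518 and 12432 CPM, Hbb-bt at 45.8, 343 and 4920 CPM, and Hba-a1 at 11.6, 120 and 2694 CPM. In cells of mouse 32 with a V(D)J call and no UMI of the 12 marker genes they were at 35.1, 14.4 and 11.7 CPM. The early values of Hbb-bs and Hba-a1 were thus near the level in lymphocytes, and the part of free globin RNA in them was not tested. Hbb-bs differed more than Hbb-bt between early and late cells, and also between middle and late cells, both well above that level. The make-up of beta globin UMIs was therefore not the same in all erythroid cells of 1 library. Alas2 was at 1.42, 12.9 and 268 CPM, Klf1 at 44.2, 62.9 and 109 CPM, Gata1 at 62.1, 80.9 and 138 CPM, Car1 at 4670, 4458 and 2999 CPM and Car2 at 2272, 2964 and 4981 CPM. Within 5 points of a limit lay 354 cells, 193 cells had under 3 such UMIs and were left out, and with 1 library no test was made.

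Mouse 31 held a small set of erythroid marker cells. Its 27 erythroid marker cells ranged from 0 to 64.3% globin, and 9 of them had a UMI of Klf1, Gata1 or Car1. Those 27 cells, of 11363, held 36 of the 45 Klf1 UMIs of the library, 294 of the 328 Car1 UMIs and 7 of the 8 Epor UMIs. Over them Klf1 was at 108 CPM (95% Poisson interval 75.9 to 150), Car1 at 885 CPM (787 to 992), Car2 at 3868 CPM and Hbb-bs at 31279 CPM. With Hemgn and Icam4 left out of the marker list, 18 of the 27 remained, and these held 16802 of the 16803 globin UMIs and the same numbers of Klf1, Car1 and Epor UMIs, with Klf1 at 170 CPM. A B cell marker UMI was seen in 13 of the 27 and in 4 of the 18. Of the 62 Gata1 UMIs, 22.6% lay in the erythroid marker cells and 58.1%, or 36 UMIs, in cells with a V(D)J call, where a single cell held 21 of the 36. Of the receptor-called cells of this mouse, 47 met the marker rule, with Hemgn giving 68.8% of their marker UMIs, and they were not counted as erythroid marker cells.

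Outside mice 30 and 32, most globin UMIs lay in globin-rich cells in which Klf1, Gata1, Epor and Car1 were not detected. Cells with globin at 10% or more of their UMIs, chosen here by the globins themselves, numbered 81 (mouse 29), 26 (mouse 34), 24 (mouse 33), 13 (mouse 31), 2 (mouse 27) and none in mouse 30, against 54 (mouse 32). They held 95.1% of the globin UMIs of mouse 29, 99.2% of mouse 34, 93.5% of mouse 33 and 75.1% of mouse 31, but 19.6% of mouse 32. In mouse 31 the erythroid marker cells, some with UMIs of progenitor genes, held 71.6% of the globin UMIs, as the sets share cells. In the 146 cells outside mouse 32, Klf1, Gata1, Epor and Car1 had 0 UMIs among 349660, which allows up to 8.58 CPM of each (3 UMIs, counting error only). The 54 cells of mouse 32 had 47, 57, 7 and 167 UMIs of those 4 genes among 397451, or 118, 143, 17.6 and 420 CPM. Car1 was also at 398 CPM in neutrophils of mouse 32, and at 148 CPM in its T cells and 150.0 CPM in its macrophages or monocytes. The Car1 level of the 54 cells was thus close to that of a non-erythroid class of the same nodule. Klf1, Gata1 and Epor were higher in the 54 cells than in those neutrophils. For Epor the limit in each of the other mice taken singly, 20.1 CPM or more, was above the value in mouse 32, so a difference in Epor was not detectable mouse by mouse.

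Alas2 and Car2, in contrast, were counted in those cells. Alas2 had 1200 UMIs in the 146 cells and was seen in 114 of them, at 1025 CPM (mouse 29), 4408 (mouse 31), 5146 (mouse 34) and 6138 (mouse 33), against 1527 CPM (mouse 32). Car2 was at 583 CPM (mouse 29), 587 (mouse 33), 970 (mouse 34) and 4708 (mouse 31), against 6439 CPM (mouse 32). The 2 spleen nodules were thus the highest for Car2 among these cells. The cells outside mouse 32 had a median of 236 genes, against 1471 in mouse 32, 40 of the 146 fell in clusters other than the 2 erythroid-like ones, and 74 had no UMI of the 12 marker genes. Malat1, an RNA kept in the nucleus, was at 798 CPM in the cells of mouse 34 and 807 CPM in those of mouse 33, against 5725 and 5037 CPM in the marker-free cells of the same libraries. It was at 9591 CPM (mouse 29) and 9116 CPM (mouse 31), against 20259 and 9977 CPM. Globin made up 74.2% (mouse 34), 63.2% (mouse 33), 44.8% (mouse 29), 58.8% (mouse 31) and 16.5% (mouse 32) of the UMIs of the globin-rich cells. In the marker-free cells of mice 29, 31, 33 and 34 it made up 0.00803% to 0.0749%. CPM counts globin in the total, so it lowered every other gene in the globin-rich cells, unequally between mice. These values and the limits above were not rescaled to the UMIs without globin.

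**Figure D3:**
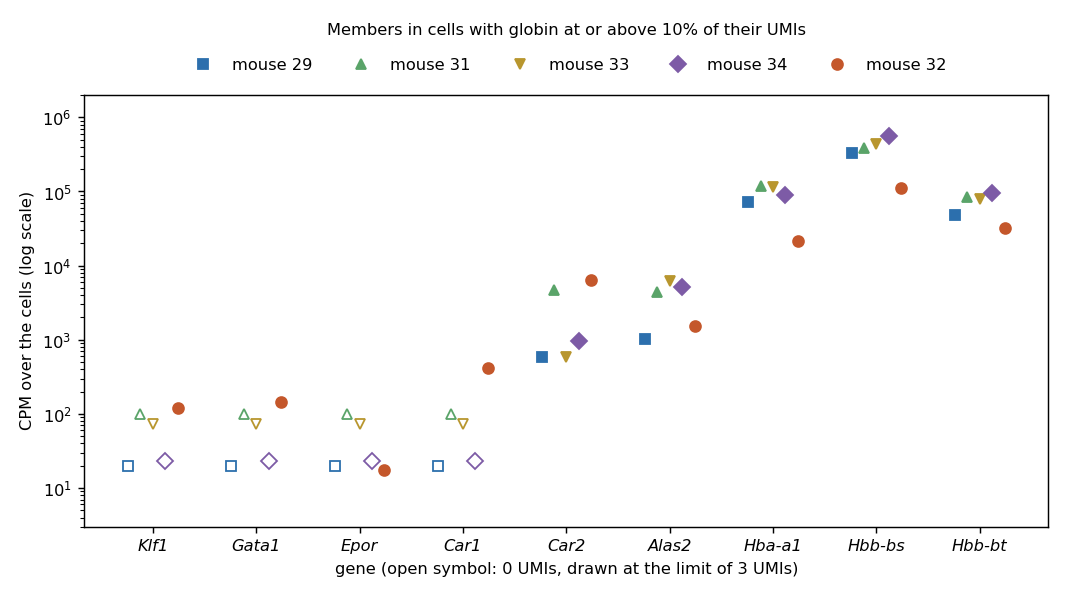
Level of each member in CPM (log axis) summed over the cells with globin at 10% or more of their UMIs, by mouse (mouse 27, with 2 such cells, is left out); an open symbol marks 0 UMIs and is drawn at the limit of 3 UMIs. Klf1, Gata1, Epor and Car1 have UMIs in mouse 32 only, while Alas2 is present in all 5 mice, from 1025 to 6138 CPM.

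Globin was also counted in lymphocytes, which are not known to transcribe it. Cells with a V(D)J call carried the 3 globins together at 838 CPM (mouse 32), 16.7 (mouse 29), 16.3 (mouse 34), 3.80 (mouse 27), 2.60 (mouse 33), 2.16 (mouse 31) and 0.934 (mouse 30). In mouse 32, 246 of the 5396 receptor-called cells met the erythroid marker rule, with a median of 20038 UMIs, and 242 of these had a T cell marker UMI. They held 7.01% of the globin UMIs and 6.18% of the Car1 UMIs of the library, against 0.36% and 0.63% in the 4361 receptor-called cells without any marker UMI. In those 4361 cells the globins together were at 61.2 CPM, still above the 16.3 CPM of the corresponding cells of mouse 29. The globin level of receptor-called cells overlapped between TCR and BCR nodules, at 5.33 ± 6.20 against 2.81 ± 1.23 on the log2(CPM + 1) scale (SD, two-sided exact permutation test, p = 0.571, n = 2 and 5).

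In mouse 32 the receptor-called cells without marker UMIs carried all 9 members, and each at a like small part of its level in erythroid marker cells. Klf1 was at 1.79 CPM, 2.92% of the erythroid level, Gata1 at 2.04 CPM (2.51%), Epor at 1.43 CPM (3.96%), Car1 at 99.96 CPM (2.35%) and Car2 at 65.4 CPM (2.21%). Alas2 was at 0.817 CPM (1.32%), Hba-a1 at 11.7 CPM (1.88%), Hbb-bs at 35.1 CPM (1.22%) and Hbb-bt at 14.4 CPM (1.24%). The range over the 9 genes was 1.22% to 3.96%, with the genes of globin-poor progenitors at its upper end and Alas2 and the beta globins at its lower end. A Car1 UMI was seen in 33.3% of these lymphocytes (median 3538 UMIs) and in 97.8% of the erythroid marker cells (median 19552 UMIs), or 10.7% and 87.7% after thinning to 1000 UMIs. Car1 was also counted in neutrophils (398 CPM), macrophages or monocytes (150.0 CPM) and T cells (148 CPM) of this nodule, and at 2.10 CPM or less in these classes in the other 6.

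In the other mice the globin level of such cells was a far smaller part of the erythroid level. Hbb-bs in receptor-called cells without marker UMIs was at 9.15 CPM (mouse 29), 7.35 (mouse 34) and 1.132 (mouse 31), which was 0.00298%, 0.00207% and 0.00362% of the level in their erythroid marker cells. The denominators differed, since the Hbb-bs level in erythroid marker cells was 307120 CPM (mouse 29) and 355710 CPM (mouse 34) but 2873 CPM (mouse 32). In mouse 32, 79.1% of the Hbb-bs UMIs in these lymphocytes lay in cells with 1 such UMI, in mouse 29 89.2% and in mouse 34 73.0%, where the highest cell had 14. Car2 reached 6.26% of the erythroid level in mouse 34 and 2.63% in mouse 33, the nodules whose B cells carried it.

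**Figure D4:**
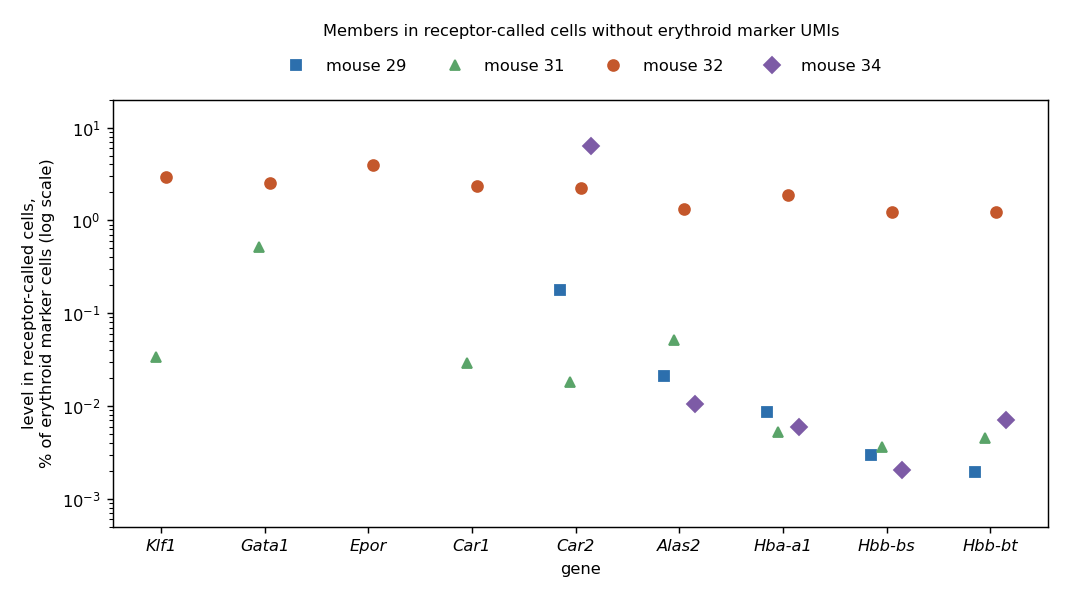
Level of each member in receptor-called cells without erythroid marker UMIs as a percentage of its level in the erythroid marker cells of the same mouse (log axis), for the 4 mice with at least 10 cells in both sets; no point is drawn where either level was 0. In mouse 32 all 9 genes lie between 1.22% and 3.96%, and the globins of mice 29, 31 and 34 lie below 0.01%.

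Over the 7 mice, libraries with more globin in erythroid marker cells tended to have more in lymphocytes. The globin UMIs held by erythroid marker cells, in CPM of the library, were 2488 (mouse 32), 1110 (mouse 34), 336 (mouse 29), 225 (mouse 31), 132 (mouse 33), 9.98 (mouse 27) and 0 (mouse 30). On log2 scales with 1 added, Pearson's r with the level in receptor-called cells was 0.713 (exact permutation p = 0.0714) and Spearman's rho 0.821 (exact permutation p = 0.0341). Adjusted over the 6 permutation tests made, the p of r was 0.25. Without mice 27 and 30, the farthest from the median, r was 0.894 over 5 mice (exact permutation p = 0.0333). The labels give no batch, and neither receptor group has enough mice for an r of its own.

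The make-up of globin UMIs was compared between erythroid marker cells and receptor-called cells. Hbb-bs made up 71.2% of the Hbb-bs and Hbb-bt UMIs in erythroid marker cells of mouse 32 and 72.9% (95% exact binomial interval 72.3 to 73.5%) in its receptor-called cells, where 23524 of the 25101 globin UMIs lay in the 246 cells that met the erythroid marker rule. The shares were 85.8% and 90.7% (77.9 to 97.4%) in mouse 29, 82.7% and 78.6% (59.1 to 91.7%) in mouse 33, and 78.0% and 63.5% (51.5 to 74.4%) in mouse 31. In mouse 34 they were 83.4% and 61.3% (54.5 to 67.7%), so the beta globin UMIs of its lymphocytes held more Hbb-bt than those of its erythroid marker cells, beyond counting error. Mouse 27 stood farthest apart, with 7 Hbb-bs and 62 Hbb-bt UMIs in receptor-called cells, or 10.1% Hbb-bs (4.18 to 19.8%), against 88.9% in its only erythroid marker cell.

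Over the 4 mice with at least 10 erythroid marker cells the Hbb-bs share was 7.47 points higher in these than in receptor-called cells, being higher in 2 of 4 (two-sided exact sign-flip permutation test, p = 0.5). The Hba-a1 share of the 3 globins was 16.7% in erythroid marker cells and 37.7% in receptor-called cells of mouse 29, 20.7% and 29.5% (mouse 31), 13.4% and 14.8% (mouse 32), and 11.9% and 22.9% (mouse 34). It was lower in the erythroid marker cells in 4 of 4 mice, by 10.6 points on average (exact permutation p = 0.125, the smallest that 4 mice allow). Against receptor-called cells without marker UMIs the mean gap in Hba-a1 was -10.5 points, erythroid minus comparison, but in mouse 32 the comparison share was then 19.1% and the gap -5.74 in place of -1.47 points. Against all marker-free cells the mean gap was -1.75 points for Hba-a1 and -3.85 points for Hbb-bs, but cells with globin at 10% or more held most of the globin of those cells in mice 29, 31 and 34 (49.2 of 53.3%, 12.9 of 16.0% and 26.8 of 27.5% of the library's globin UMIs). Against T and B class cells without marker UMIs and with globin under 10%, chosen after seeing the data, the Hba-a1 share was again lower in the erythroid marker cells in 4 of 4 mice, with gaps of -9.30 to -1.87 points and a mean of -5.05 (exact permutation p = 0.125). The mean gap in Hbb-bs was then 2.56 points and positive in 2 of 4 mice, with 21.7 points in mouse 34 (exact permutation p = 0.875). Mouse 29 gave 69 and mouse 31 gave 105 globin UMIs in receptor-called cells, which limits the precision of these shares.

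**Figure D5:**
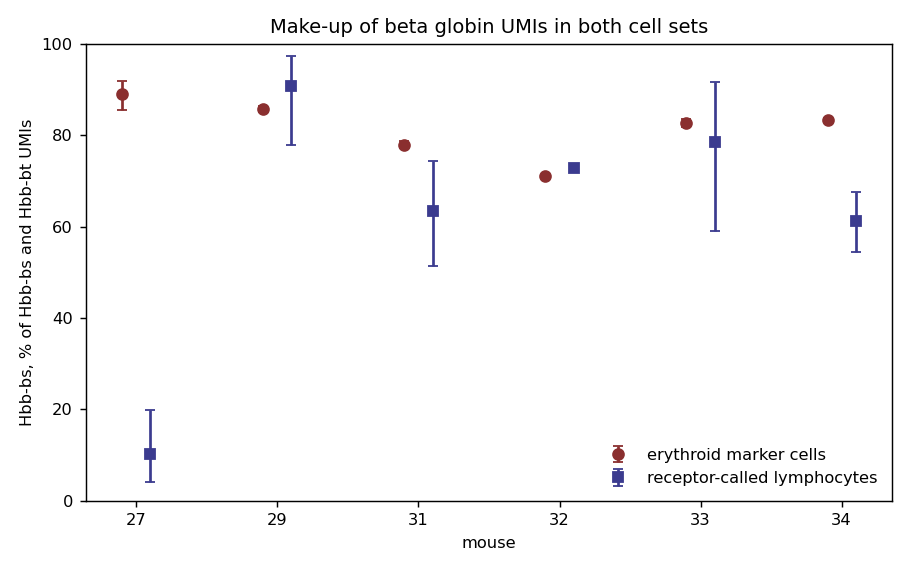
Hbb-bs as a percentage of Hbb-bs and Hbb-bt UMIs in erythroid marker cells (circles) and receptor-called lymphocytes (squares) of 6 mice; bars are 95% exact binomial intervals and cover counting error only, and mouse 30 had 3 such UMIs in its lymphocytes and is left out. Both sets lie close together in mice 29, 32 and 33, and in mouse 27 they lie at 88.9% and 10.1%.

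Erythroid marker cells were then set against receptor-called lymphocytes of the same mice (29, 31, 32 and 34) by summing UMIs per mouse and set, with mouse as a block in edgeR. Of the 6 members tested, 5 were higher in erythroid marker cells, where 161 of all 11684 genes tested (1.38%) were called higher and 262 lower. The log2 fold changes were 14.33 ± 2.07 (SE) for Hbb-bs, 13.48 ± 1.95 for Hbb-bt, 12.98 ± 1.89 for Hba-a1 and 11.01 ± 1.62 for Alas2, each with an edgeR adjusted p of 0.000302, and 6.94 ± 1.31 for Car2 with 0.00301. Car1 did not pass, with 4.61 ± 1.44 and an edgeR adjusted p of 0.0721: it was at 4252 and 885 CPM in the erythroid marker cells of mice 32 and 31 and at 0 in those of mice 29 and 34. It passed with at least 5 UMIs over 3 marker genes (edgeR adjusted p 0.00616), with the list without Hemgn and Icam4 (0.0328) and against receptor-called cells without marker UMIs (0.00888). Klf1, Gata1 and Epor did not pass the filter on low counts, being at 0 in the erythroid marker cells of the same 2 mice. Those sums held 17 cells (mouse 29) and 12 cells (mouse 34), and in mouse 29 a single UMI was 25.1 CPM. Klf1 and Epor at their levels in mouse 32, 61.1 and 36.1 CPM, could have gone uncounted there, so these values of 0 do not show absence. Alas2 in receptor-called cells was at 0.241 (mouse 29), 0.144 (mouse 31), 10.1 (mouse 32) and 0.340 CPM (mouse 34). Its place among the genes tested thus rested mainly on the erythroid marker cells. The median of all genes was -0.36 on the log2 scale. With no filter on low counts none of the 5 members passed (edgeR adjusted p of 0.0627 to 0.132). Without mouse 29 no gene was called (edgeR adjusted p of 0.232 to 0.290 for the 5 members, 1881 genes at an unadjusted p under 0.05), and without the mouse block none was either (1008 genes at an unadjusted p under 0.05).

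Genes that work beside the members were read from the same test. Of 11 heme synthesis and mitochondrial iron genes, 5 rose and none fell, among them Fech, which inserts iron into heme (5.003 ± 0.84, SE), the mitochondrial iron importer Slc25a37 (4.39 ± 0.91), Abcb10 (3.04 ± 0.66) and Urod, with edgeR adjusted p of 0.00114 to 0.0393. Alas1, the housekeeping counterpart of Alas2, had -0.30 ± 0.68 (edgeR adjusted p 0.937), and the list's median was 1.97 against -0.36 for all genes. Fech was at 452 and 7.48 CPM in erythroid marker and receptor-called cells of mouse 29, 280 and 7.27 CPM (mouse 31), 116 and 34.2 CPM (mouse 32), and 708 and 12.7 CPM (mouse 34), without overlap between the sets.

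Of 8 listed other globin and chaperone genes, 2 passed the filter on low counts. Hba-a2 rose by 12.84 and the minor theta globin gene Hbq1b by 8.82 on the log2 scale (edgeR adjusted p 0.000302 and 0.00100). In receptor-called cells Hbq1b was at 0 in mice 29, 31 and 34 and at 1.37 CPM in mouse 32. It was thus tested only through its level in erythroid marker cells, and its rise was largely fixed by the filter. Ahsp, also on that list, was not analysed here. Of 9 iron uptake and late maturation genes 4 rose, among them Ube2l6, a conjugating enzyme for ubiquitin-like proteins (6.32), Bpgm, which makes the hemoglobin effector bisphosphoglycerate (5.77), and Isg20, with edgeR adjusted p of 0.00114 to 0.00372. Among 10 transcription factor genes that work with Gata1 or Klf1 only Tal1, a DNA-binding partner of Gata1, passed, with 7.32. In erythroid marker cells it was at 100 CPM (mouse 29), 90.3 (mouse 31), 83.7 (mouse 32) and 0 (mouse 34). In receptor-called cells Tal1 was at 0.241, 0, 15.5 and 0 CPM in the same mice. Its place among the genes tested thus also rested mainly on the erythroid marker cells, and its rise was largely fixed by the filter. Gfi1b had 4.28 and E2f2 2.03, with edgeR adjusted p of 0.0527 and 0.0519. None of 9 Epo receptor signalling genes passed (Socs2 came nearest, at -3.32 with an edgeR adjusted p of 0.0505), nor did either of the 2 further carbonic anhydrase genes tested, and 1 of 10 proliferation genes did (Ube2c, 2.35, edgeR adjusted p 0.0286). In the 2 comparisons between nodules above, edgeR called 0 genes of any of these lists. The 12 marker genes chose the cells and are not read from this test.

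Across 43 sums over the cells of 1 class in 1 mouse, Klf1 and Hbb-bs differed in the genes they resembled. Klf1 was most like Trgj1, a T cell receptor gamma segment gene (r = 0.974), then Rhd (0.969), Dnmt3c (0.959), Pdia2 (0.957) and Apol10a (0.956), and among the members like Gata1 (0.886) and Car1 (0.867). Among the genes most like Hbb-bs were Hba-a2 (0.966), Apol11b (0.852), Trim10 (0.819) and Hbq1b (0.810), and among the members it was most like Hba-a1 (0.988), Hbb-bt (0.965) and Alas2 (0.887). The r between Klf1 and Hbb-bs was 0.431. Outside the erythroid class Klf1 was at 5.97 CPM or less in every nodule, and in that class its median over 5 nodules was 0. Its r values thus rest on few sums with high levels. Trgj1 itself was low, at 7.78 CPM in the erythroid marker cells of mouse 32 and at 6.02 CPM, or 2 UMIs, in those of mouse 31. These r are over log2(CPM + 1) of sums that share libraries and depth and are given with no test.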

How the data were processed

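White nodules of 7 cKO mice were profiled by droplet single-cell RNA-seq and V(D)J-seq. The authors deposited raw UMI counts per gene and called cell, without normalization, on GRCm38/mm10 per the submitters' processing notes; the aligner and cell caller are not given in the sources used here. The labels and the methods name a 5′ kit for V(D)J and the methods a 3′ kit for scRNA-seq; the labels of the nodule RNA libraries give the 5′ kit only, so the transcript end counted was not settled. All 7 RNA and 7 V(D)J files were used, the latter only for the barcodes with a call.

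Cells with more than 200 UMIs, more than 100 genes and at most 10% mitochondrial UMIs were kept. Doublets were not called. Cells were clustered with scanpy 1.11.5 and leidenalg 0.10.2 without the members and other globins among the variable genes, and clusters named by fixed markers. Counts were summed per mouse, or per mouse and cell set with at least 10 cells, and tested with edgeR 4.0.16 (TMM, filterByExpr, quasi-likelihood test, Benjamini-Hochberg adjustment over all genes tested, threshold 0.05) in R 4.3.3; DESeq2 1.42.0 was an alternative. The scripts were tested on simulated data. Exact permutation tests over mice were enumerated in Python 3.11.15. Intervals are 95% (exact Poisson for CPM, Clopper-Pearson for shares) and, like the limit of 3 UMIs for a count of 0, cover counting error only. Log2 levels had 1 CPM added. Fold changes of genes at 0 in a set depend on the prior count of the fit and are no bounds.

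The mouse was the replicate. In the comparison of cell sets both sets came from the same mouse, which is the pairing; the deviations of the 2 sets of a mouse from their set means correlated over 11684 genes with r of 0.115 (mouse 29), 0.405 (31), 0.213 (32) and 0.284 (34). The members were named whatever their values; from each fixed list, up to 3 genes with the largest change past the threshold and up to 3 that did not pass were named, and, where a count was 5 or fewer, the rest of the called genes, chosen after their values were seen. The members and lists were chosen with earlier results of these data known. A few genes of these lists are not reported here.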

Additional observations from a re-analysis of the deposited data

Results flagged for a closer look

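In 22 tests a nodule far from the others was sought, among the 5 BCR nodules or the 5 outside the spleen. Such a nodule was found in 3 tests, where chance gives about 1 in 20. The 2 groups share mice, and Alas2 in mouse 34 was found in both, so the tests were not independent. Car1 in mouse 31, at 4.38 CPM, lay far above the next BCR nodule (0.569 CPM). Alas2 in mouse 34, at 15.5 CPM, lay far above the next BCR nodule, and the next nodule outside the spleen, both at 3.81 CPM (mouse 33). In mouse 31, 89.6% of the Car1 UMIs lay in 27 erythroid marker cells, and in mouse 34, 97.1% of the Alas2 UMIs lay in the 26 cells with globin at 10% or more of their UMIs.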

How the results depend on the processing

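Of the main results under each alternative, 82 kept their direction and side of the threshold, 13 moved, 4 reversed and 4 became stronger. DESeq2 called 1060 genes for TCR against BCR, 370 for spleen against other sites and 229 for erythroid marker against receptor-called cells. The last count was 3073 with no filter on low counts, 2642 with at least 5 UMIs over 3 marker genes (2 mice left), 2389 against all marker-free cells, 1142 with a marker list without Hemgn and Icam4 (chosen after seeing the data), and 0 without the replicate block (mouse), when no member passed (adjusted p 0.156 to 0.448 in edgeR); with no filter the 5 members had edgeR adjusted p of 0.0627 to 0.132. Car1 passed with the stricter marker rule (edgeR adjusted p 0.00616), with the shorter list (0.0328) and against receptor-called cells without marker UMIs (0.00888). Leaving out mice in turn gave 0 to 233 genes for TCR against BCR (233 without mouse 29), 0 to 17 for spleen (17 without mouse 31) and 0 to 966 for the cell sets (0 without mouse 29, 188 without mouse 32, 966 without mouse 34). The erythroid marker cell share, TCR minus BCR, ranged from -0.113 points (without mouse 32) to 22.5, and spleen minus others from 0.160 to 22.5. The globin level of receptor-called cells, TCR minus BCR, was -2.93 in all marker-free cells and ranged from -1.85 (without mouse 32) to 6.91 in log2. The Hbb-bs share difference was -3.85 points against all marker-free cells. The r of globin in lymphocytes and erythroid marker cells was 0.704 with 10 CPM added (exact permutation p = 0.0333), 0.815 for all marker-free cells (0.0288), 0.965 for mean UMIs per cell (0.00655) and 0.794 for receptor-called cells without marker UMIs (0.0292, chosen after seeing the data).

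Without erythroid marker cells, Hba-a1 and Hbb-bs had log2 fold changes of -1.07 and -1.30 for TCR against BCR and -0.60 and -0.94 for spleen. Without all cells meeting the marker rule (chosen after seeing the data), Alas2, Hba-a1, Hbb-bs and Hbb-bt had -1.36, -2.91, -3.25 and -1.89 for TCR and -1.04, -1.76, -2.26 and -1.30 for spleen. Leaving out mice, TCR against BCR ranged from -0.0665 to 6.77 for Klf1, -0.40 to 7.09 for Gata1, -1.34 to 11.30 for Car1, -1.55 to 5.53 for Car2, -4.33 to 2.71 for Alas2, -7.83 to 1.46 for Hba-a1, -8.78 to 1.36 for Hbb-bs and -9.28 to 2.57 for Hbb-bt. Spleen against others ranged from -0.35 to 5.66 for Car2, -0.68 to 3.15 for Alas2, -0.55 to 1.65 for Hba-a1, -1.30 to 1.501 for Hbb-bs and -0.70 to 2.79 for Hbb-bt; every lower end came without mouse 32. The cause of these shifts was not tested. With 2 mice in the smaller group the exact tests cannot go below p = 0.0952, and mouse 30, with 19264039 UMIs, limits what low counts can show.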

Other observations

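The erythroid marker cells of mouse 32 carried Tcrg-C1, a T cell receptor gamma constant gene, at 263 CPM, against 5.30 CPM for the alpha constant gene Trac and 2.60 CPM for Cd3e. Over the 5 bins of rising globin share Tcrg-C1 stood at 348, 263, 64.9, 14.5 and 9.02 CPM and Kit, the stem cell factor receptor of progenitors, at 133, 92.0, 20.9, 8.53 and 0 CPM. In the receptor-called cells of mouse 32 without marker UMIs the order was the other way, with Cd3e at 428 CPM, Trac at 226 CPM and Tcrg-C1 at 6.28 CPM. In mouse 31 the 27 erythroid marker cells had Tcrg-C1 at 60.2 CPM and Gata2 at 33.1 CPM. Both genes were at 0 in the 17, 7 and 12 erythroid marker cells of mice 29, 33 and 34. Sets this small can miss such levels, as a single UMI was 25.1 CPM in mouse 29. These genes were chosen after their values were seen, apart from Gata2 and Kit, which were on the list of early genes.

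The embryonic globin genes Hbb-y and Hbb-bh1 were at 0.47 and 0.03 CPM in the erythroid marker cells of mouse 32, where Hba-a2 was at 122 CPM.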
